A study of Mus musculus with 6 samples.

Results

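Motile cilia genes, the genes that build and drive the beating hairs of ependymal cells, were examined in RNA from mouse hippocampus. The group held 70 of the 25239 gene symbols counted. They were chosen by name, as all symbols of the families Dnah, Dnai or Dnaic, Cfap, Rsph, Drc and Tekt followed by a number, with Foxj1, Mapk15, Rfx2, Rfx3, Ccdc39, Ccdc40, Hydin and Dynlrb2 added. The list was selected on these same libraries with the genotype difference already known, so the values of its genes between the genotypes are a description. The tissue was the hippocampus of 6 mice, 3 of them WT (Ube3a m+/p+) and 3 of the genotype Ube3a m-/p+, all male, of the C57BL/6 strain and 6 to 8 weeks old, with 1 library for each mouse. The Ube3a m-/p+ mouse is a model of Angelman syndrome (AS) in which the maternal copy of Ube3a is defective and the paternal copy, silent in most neurons, is kept. Both genotypes carry the normal paternal copy, and the labels name no treatment.

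A motile cilium is a shaft of paired microtubules, the axoneme. Dynein arms, large motors fixed along each microtubule pair, slide it against its neighbour. Radial spokes and the central pair time this sliding, and the nexin-dynein regulatory complex holds neighbouring pairs together so that sliding becomes bending. In the brain, bundles of such cilia stand on the ependymal cells that line the ventricles. Neurons and astrocytes instead carry a single primary cilium that has no dynein arms. FOXJ1 switches on the genes of the motile axoneme. RFX factors bind a palindrome called the X-box upstream of many ciliary genes, of both motile and primary cilia. Several of the genes listed, Rfx3 and Cfap20 among them, also work in cells without motile cilia.

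The X-box is shown first because it is the sequence that members of different families share, and the rule did not use it. Promoters were windows of 250 bases before to 50 bases after each annotated start, from RefSeq on GRCm38.p6, and 58 of the 70 genes had one. The table has no entry for Cfap53, Cfap54, Cfap65, Cfap73, Cfap97, Cfap157, Cfap299, Dnah3, Foxj1, Mapk15, Rsph1 and Rsph4a, which were not searched. The palindrome was searched on both strands as GTTNCNNNGNAAC and as GTTNCNNNNGNAAC, which differ by 1 base in the middle. Several spellings were looked at before these were kept. Of the 58 genes, 12 (20.7%) held the first form, against 1.12% of the 27025 genes in the table, and 7 (12.1%) held the second, against 1.19%. Either form was found in 18 (31%), against 2.29% of all genes. The forkhead motif GTAAACA was found in 4 (6.9%), namely Cfap20, Cfap43, Dnah17 and Tekt3, against 4.05% of all genes. These are matches of letters and not measured binding, and members with near-identical copies count more than once.

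The dynein genes are shown first, with the palindrome in capitals and 10 bases on each side, read 5′ to 3′ on the strand of the gene. Coordinates are chr11:66168611-66168643 (minus strand) for Dnah9, chr4:41569765-41569797 (plus) for Dnaic1 and chr11:114727376-114727408 (plus) for Dnaic2.
Dnah9: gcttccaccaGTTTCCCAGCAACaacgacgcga
Dnaic1: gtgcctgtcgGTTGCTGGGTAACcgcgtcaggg
Dnaic2: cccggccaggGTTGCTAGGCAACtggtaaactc

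The Dnah7 copies, which lie on chromosome 1 and are counted as 3 genes, are shown because their sites are almost the same, as are their transcripts. Coordinates are chr1:53706819-53706851 (minus) for Dnah7a, chr1:46066819-46066851 (plus) for Dnah7b and chr1:46425439-46425471 (plus) for Dnah7c.
Dnah7a: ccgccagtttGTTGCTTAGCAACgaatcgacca
Dnah7b: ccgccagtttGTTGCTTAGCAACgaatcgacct
Dnah7c: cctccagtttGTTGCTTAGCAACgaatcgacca

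Sites of the other structures are those of the tektin gene Tekt2 (chr4:126325695-126325727, minus), the radial spoke gene Rsph3b (chr17:6948325-6948357, minus), the regulatory complex gene Drc3 (chr11:60353368-60353400, plus) and Cfap45 (chr1:172521101-172521134, plus), whose product lies inside the microtubules.
Tekt2: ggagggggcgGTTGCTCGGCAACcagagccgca
Rsph3b: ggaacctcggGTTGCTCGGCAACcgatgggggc
Drc3: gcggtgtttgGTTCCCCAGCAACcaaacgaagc
Cfap45: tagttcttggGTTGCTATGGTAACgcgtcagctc

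Among the genes added by name that were searched, Dynlrb2 and Hydin held an X-box, and their whole promoter windows are given. The Dynlrb2 window is chr8:116504765-116505064 (plus), with the palindrome at position -51 from the annotated start. The Hydin window is chr8:110266727-110267026 (plus), with the palindrome at position -21.
Dynlrb2: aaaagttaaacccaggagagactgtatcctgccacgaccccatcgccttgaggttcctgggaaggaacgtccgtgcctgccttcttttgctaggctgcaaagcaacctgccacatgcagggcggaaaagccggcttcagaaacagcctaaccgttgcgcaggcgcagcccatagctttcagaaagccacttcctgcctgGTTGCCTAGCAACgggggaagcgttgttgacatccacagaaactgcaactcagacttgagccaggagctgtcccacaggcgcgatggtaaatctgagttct
Hydin: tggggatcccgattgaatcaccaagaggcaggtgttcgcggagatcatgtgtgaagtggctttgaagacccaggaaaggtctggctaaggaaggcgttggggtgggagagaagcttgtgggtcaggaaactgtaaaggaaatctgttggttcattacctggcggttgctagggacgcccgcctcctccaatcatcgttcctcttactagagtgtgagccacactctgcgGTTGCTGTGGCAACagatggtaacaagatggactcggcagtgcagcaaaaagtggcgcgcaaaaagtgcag

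The reads counted on genes numbered 7293272 to 8675252 in WT mice and 8871052 to 11314409 in Ube3a m-/p+ mice. Levels are given as CPM, the counts of a gene divided by this total and multiplied by 1000000, so that 1 CPM is about 7 to 11 reads. Ube3a itself (chr7:59228750-59311536) had 104, 141 and 151 CPM in WT mice 1, 2 and 3 and 96.8, 82.9 and 80.6 CPM in Ube3a m-/p+ mice 1, 2 and 3. It was lower in every Ube3a m-/p+ mouse, with a log2 fold change of -0.58 (SE 0.12, adjusted p = 0.0363, edgeR). The call was lost in 7 of 15 alternatives, and after each library was corrected for transcript GC and length the log2 fold change was -0.20 (adjusted p = 0.241, edgeR). A p-value sets the genotype difference against the variation between these 6 mice, estimated with information shared across all genes tested. The labels number the mice but do not describe their litters, so litters are not allowed for. The 8 markers of hippocampal neurons used to check the tissue, Prox1, Wfs1 and Neurod6 among them, summed to 970.2 to 1069 CPM in WT mice and 913.6 to 992.3 CPM in Ube3a m-/p+ mice.

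Motile cilia genes were present at low levels. All 70 had reads, with 7 to 6231 counts over the 6 libraries and a median of 204.5, and 19 had under 100 counts. Together they summed to 653.5, 704.6 and 723.1 CPM in WT mice 1, 2 and 3 and to 704.8, 674.2 and 611 CPM in Ube3a m-/p+ mice 1, 2 and 3, so the genotypes overlapped. Rfx3 alone held 16.7% of the counts of the list, and Rfx3, Cfap36, Ccdc39, Cfap97 and Cfap20 together held 45.3%, so a sum over the list mainly follows these 5 genes.

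Between genes, levels were compared as CPM per kilobase of the longest annotated transcript. The highest was Cfap36, whose product binds the ciliary GTPase ARL3, with 44.5 CPM per kilobase. Ccdc39 (14.97), Cfap298 (14.4), Rfx3 (12.6), Rsph9 (9.58) and Cfap97 (8.08) followed on the same scale. Their order depends on the length used. Per kilobase of all annotated exons merged, Ccdc39 (7.25) was below Cfap298 (12.98) and Rfx3 (10.5), and Rsph9 (5.78) was below Cfap97 (7.23). Of the 17 genes chosen as highest in their families, 16 were the same with that length. Among the dynein heavy chains, the motor subunits, Dnah9 of the outer arm was highest with 2.18 CPM per kilobase, followed by Dnah1 of the inner arm (1.16) and Dnah17 (0.928). The intermediate chains Dnaic1 and Dnaic2, which hold the outer arm to the microtubule, had 1.76 and 1.06 CPM per kilobase. Foxj1 had 4.34, Dynlrb2 2.15, Mapk15 1.45, Rfx2 1.24, Ccdc40 0.754 and Hydin 0.206 CPM per kilobase. The lowest were Rsph6a (0.0569) and Tekt3 (0.0690), both known from sperm, beside Rsph14 (0.0648), Dnah7a (0.0668) and Dnah8 (0.0735). Dnah7a, Dnah7b and Dnah7c are near-identical copies, as are Rsph3a and Rsph3b, and reads with more than 1 alignment were not counted, so the levels of these genes are uncertain.

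After edgeR's filter on low counts, 57 of the 70 genes were tested with 14445 genes in all. The 13 left out were Cfap53, Cfap57, Cfap58, Cfap73, Cfap77, Cfap99, Cfap221, Cfap299, Dnah7a, Rsph6a, Rsph14, Tekt3 and Tekt4, with 7 to 68 counts each, and 10 of them had the higher mean CPM in Ube3a m-/p+ mice and 3 in WT mice. Of the 57, 50 exceeded the CPM of the filter, 1.14, in all 6 mice. Cfap52, Cfap61, Cfap206, Dnah3 and Dynlrb2 exceeded it in every Ube3a m-/p+ mouse but not in every WT mouse, so these genes favour a higher value in Ube3a m-/p+ mice by the way they passed. Dynlrb2 exceeded it in no WT mouse and was tested only through the Ube3a m-/p+ mice. Dnah8 exceeded it in no Ube3a m-/p+ mouse, so its lower value there is favoured likewise.

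Between the genotypes, 3 of the 57 genes were called, at a Benjamini-Hochberg adjusted p below 0.05 over all genes (edgeR) and a fold change above 1.2, which is 5.26% against 2.01% of the 14445 genes tested. Foxj1 and Mapk15 were higher in Ube3a m-/p+ mice, where 1.02% of all genes were called, and Rfx3 was lower, where 0.99% were. Without a call, 41 of the 57 had a positive and 16 a negative log2 fold change, with a median of 0.20 against 0.002 over all genes tested. At an unadjusted p below 0.05 (edgeR), 11 of the 57 were higher and 6 lower, where 1765 and 1795 of all 14445 genes were. These numbers over all genes also stand against the counts at an unadjusted p given for each group below. The genotypes did not overlap in 14 genes that were higher in Ube3a m-/p+ mice (24.6%, against 10.8% of all genes) and in 6 that were lower (10.5%, against 14.2%). The counts of signs and of genes without overlap include Dynlrb2 and Dnah8, each of which passed the filter through 1 genotype only. None of the 3 was called when WT mouse 2, WT mouse 3, Ube3a m-/p+ mouse 2 or Ube3a m-/p+ mouse 3 was left out, although the log2 fold changes stayed at 0.86 to 1.09 for Foxj1, 1.33 to 1.44 for Mapk15 and -0.54 to -0.40 for Rfx3. DESeq2, run as another tool, called Foxj1, Rfx3 and Ccdc39 and no other gene of the list, with an adjusted p for only 19 of them. Over all genes it called 934 of the 10689 that had an adjusted p. Nothing is read from these counts about the list, because it was chosen with this contrast known. In such bulk tissue, more or fewer ciliated cells and more or less RNA in each of them cannot be told apart.

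**Figure D1:**
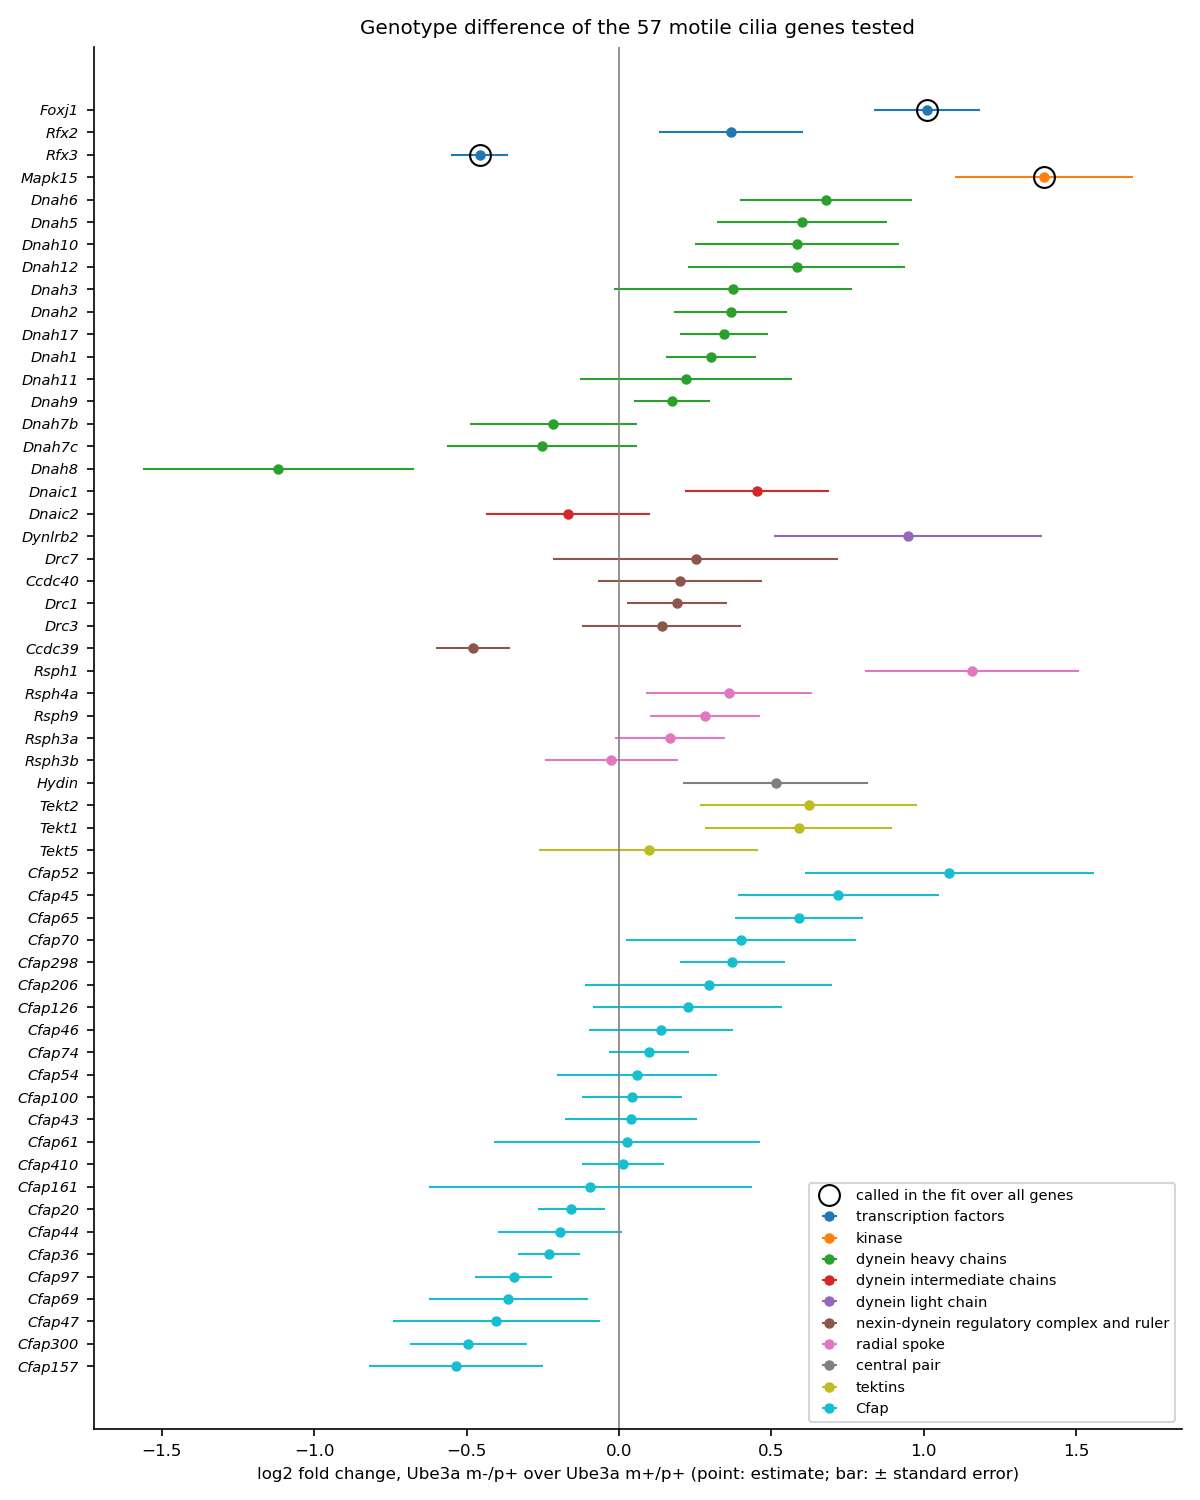
Log2 fold change, Ube3a m-/p+ over WT, of the 57 motile cilia genes tested, in role groups. Points are estimates from the fit over all genes and bars are standard errors, and rings mark the 3 genes called, Foxj1 at 1.01, Mapk15 at 1.39 and Rfx3 at -0.46.

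The transcription factors did not move in 1 direction. Foxj1 (chr11:116330704-116335399), the master switch of motile cilia, had 7.30, 7.26 and 8.36 CPM in WT mice 1, 2 and 3 and 13.6, 18.2 and 13.6 CPM in Ube3a m-/p+ mice 1, 2 and 3. The lowest Ube3a m-/p+ mouse lay well above the highest WT mouse. The mean was 7.64 ± 0.625 CPM in WT and 15.15 ± 2.65 CPM in Ube3a m-/p+ mice (SD, n = 3 each). The log2 fold change was 1.01 (SE 0.17), on 656 counts in all. Rfx3 (chr19:27761721-28011166), an X-box factor of motile and primary cilia, went the other way, with 128, 137.7 and 137.2 CPM in WT mice and 109.7, 92.3 and 88.5 CPM in Ube3a m-/p+ mice. Every Ube3a m-/p+ mouse was below every WT mouse, and the log2 fold change was -0.46 (SE 0.09). Corrected for transcript GC and length, it was -0.17 and not called. Rfx2, its close relative with a main role in spermatids, had 3.89, 5.88 and 3.70 CPM in WT mice against 5.75, 6.01 and 5.51 CPM in Ube3a m-/p+ mice. WT mouse 2 lay among the Ube3a m-/p+ mice, and the log2 fold change was 0.37 (SE 0.24).

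Mapk15 (chr15:75993769-75999154), an atypical MAP kinase that acts at the ciliary base, had the largest positive log2 fold change of the 57 genes. It had 1.41, 1.61 and 1.65 CPM in WT mice and 3.83, 4.42 and 3.90 CPM in Ube3a m-/p+ mice, on 163 counts in the 6 libraries. The genotypes were widely apart and the mice of each were close together, with means of 1.56 ± 0.126 and 4.05 ± 0.322 CPM (SD, n = 3 each) and a log2 fold change of 1.39 (SE 0.29).

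**Figure D2:**
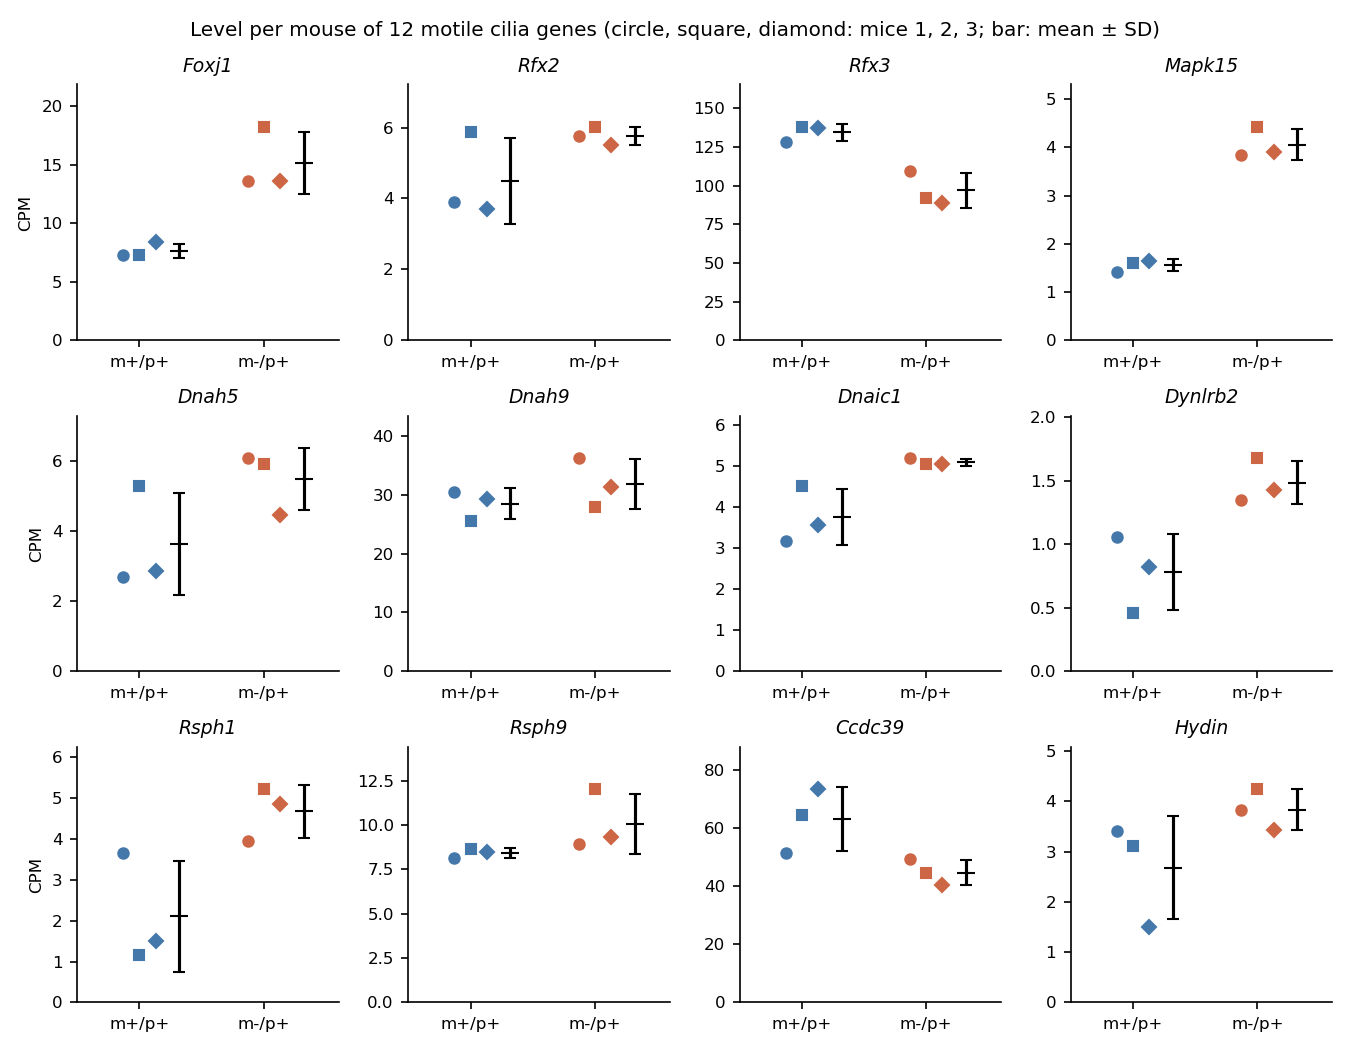
CPM of 12 motile cilia genes in each mouse, with WT (m+/p+) on the left and Ube3a m-/p+ on the right of each panel. Circles, squares and diamonds are mice 1, 2 and 3 and bars are the mean ± SD of 3 mice. Foxj1 and Mapk15 are higher and Rfx3 and Ccdc39 lower in every Ube3a m-/p+ mouse, whereas Rfx2, Dnah5 and Dnah9 overlap.

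Of the 13 dynein heavy chains tested, 10 had a positive log2 fold change, with a median of 0.34, and none was called by edgeR (3 higher and 1 lower at an unadjusted p below 0.05). Of all 14445 genes tested, 1765 were higher and 1795 lower at that p. Dnah9, the most abundant per length, had 30.5, 25.5 and 29.3 CPM in WT mice and 36.2, 27.8 and 31.3 CPM in Ube3a m-/p+ mice. These ranges overlapped, with a log2 fold change of 0.17 (SE 0.12). Dnah17, an outer arm chain best known from sperm, had 10.95, 13.03 and 13.03 CPM in WT mice and 14.8, 16.3 and 15.3 CPM in Ube3a m-/p+ mice. All 3 Ube3a m-/p+ mice were higher, with a log2 fold change of 0.34 (SE 0.15). Dnah1 had 12.6, 15.1 and 12.6 CPM against 17.9, 16.8 and 14.5 CPM, and here WT mouse 2 was above Ube3a m-/p+ mouse 3. The largest positive log2 fold changes among the heavy chains were those of Dnah6 (0.68, SE 0.28), of the inner arm, and of Dnah5 (0.60, SE 0.28), of the outer arm, both with overlapping genotypes and named after their values were seen. Dnah8, an outer arm chain known from sperm, had 2.00, 1.38 and 1.65 CPM in WT mice and 1.13, 0.442 and 0.760 CPM in Ube3a m-/p+ mice. It was lower in all Ube3a m-/p+ mice, with the largest negative log2 fold change of the 57 genes, -1.12 (SE 0.44), on 64 counts.

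Summed over the 14 heavy chains, the level was 87.5, 93.5 and 86.1 CPM in WT mice 1, 2 and 3 and 111.7, 110.7 and 95.7 CPM in Ube3a m-/p+ mice 1, 2 and 3. The Ube3a m-/p+ mice were all higher, mouse 3 by the least. Of the smaller dynein chains, Dnaic1 had 3.18, 4.50 and 3.57 CPM in WT mice and 5.19, 5.04 and 5.04 CPM in Ube3a m-/p+ mice, without overlap and with a log2 fold change of 0.45 (SE 0.24). Its partner Dnaic2 had 2.95, 3.34 and 3.43 CPM against 3.04, 2.65 and 2.85 CPM, with overlap and a log2 fold change of -0.17 (SE 0.27). Dynlrb2, a light chain of the roadblock type, had 1.06, 0.461 and 0.823 CPM in WT mice and 1.35, 1.68 and 1.43 CPM in Ube3a m-/p+ mice. The genotypes were apart at this low level, with a log2 fold change of 0.95 (SE 0.44) on 65 counts. Dynlrb2 passed the filter only through the Ube3a m-/p+ mice, which favours this direction.

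Radial spoke genes had a positive log2 fold change in 4 of the 5 tested, with a median of 0.28, and none was called by edgeR (1 higher and 0 lower at an unadjusted p below 0.05). Rsph1, a protein of the spoke head, had 3.65, 1.153 and 1.51 CPM in WT mice and 3.95, 5.22 and 4.85 CPM in Ube3a m-/p+ mice. The genotypes did not overlap, though WT mouse 1 lay close to Ube3a m-/p+ mouse 1, and the log2 fold change of 1.16 (SE 0.35) was 0.85 to 1.84 with 1 mouse left out. Rsph9, also of the spoke head and the most abundant per length, had 8.13, 8.65 and 8.501 CPM against 8.91, 12.02 and 9.32 CPM. It was higher in all Ube3a m-/p+ mice by a small margin, with a log2 fold change of 0.28 (SE 0.18). Rsph3a, of the spoke stalk, had 10.3, 8.07 and 8.09 CPM in WT mice and 9.69, 8.84 and 10.8 CPM in Ube3a m-/p+ mice, which overlapped.

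Hydin, a giant protein of the central pair, had 3.42, 3.11 and 1.51 CPM in WT mice and 3.83, 4.24 and 3.42 CPM in Ube3a m-/p+ mice. WT mouse 3 was low, WT mouse 1 was next to Ube3a m-/p+ mouse 3, and the log2 fold change was 0.51 (SE 0.30). Tektins, filaments that run inside the microtubule pairs, had positive log2 fold changes in 3 of 3 tested, Tekt1 with 0.59 (SE 0.31), Tekt2 with 0.62 (SE 0.36) and Tekt5 with 0.10 (SE 0.36). Tekt1 had 1.77, 2.19 and 2.06 CPM in WT mice and 2.93, 3.62 and 2.38 CPM in Ube3a m-/p+ mice, without overlap. Tekt2 did not overlap either, with 1.18 to 1.61 CPM in WT mice and 1.77 to 2.76 CPM in Ube3a m-/p+ mice. Tekt5 overlapped, since WT mouse 1 (8.60 CPM) was above every other mouse (2.61 to 6.31 CPM). In Tekt2, 20.8% of the exons overlap a gene of the opposite strand, Gm12945, and whether the counting separated strands is not given in the sources used here.

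The nexin-dynein regulatory complex and its ruler were split. Ccdc39 and Ccdc40 form together the molecular ruler that sets where dynein arms attach. Ccdc39 had 51.6, 64.55 and 73.5 CPM in WT mice and 49.3, 44.6 and 40.4 CPM in Ube3a m-/p+ mice. It was lower in all Ube3a m-/p+ mice, by a log2 fold change of -0.48 (SE 0.12), but the gap between WT mouse 1 and Ube3a m-/p+ mouse 1 was small. It was not called by edgeR as fitted over all mice, but was by DESeq2 and in 7 of 15 alternatives in all. Ccdc40 was far less abundant, with 4.01, 4.15 and 2.33 CPM against 4.17, 4.07 and 3.80 CPM, and overlapped, with a log2 fold change of 0.20 (SE 0.27). On the scale per kilobase, Ccdc39 was at 14.97 and Ccdc40 at 0.754. Exons of Ttc14 on the opposite strand cover 16.9% of those of Ccdc39, so part of its reads may belong to Ttc14 if strands were not separated.

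Of the regulatory complex itself, Drc1, at its base, had 9.66, 10.1 and 9.60 CPM in WT mice and 10.2, 12.3 and 10.65 CPM in Ube3a m-/p+ mice, nearly touching, with a log2 fold change of 0.19 (SE 0.16). Drc3 had 4.71, 8.18 and 11.9 CPM against 10.6, 8.40 and 7.89 CPM, and WT mice 1 and 3 enclosed all other values. Drc7, named after its values were seen, had 7.30, 4.27 and 11.8 CPM in WT mice and 12.6, 10.3 and 4.37 CPM in Ube3a m-/p+ mice. Mice of the same genotype differed more in Drc7 than in any other of the 57 genes relative to counting noise (chi-square 17.6 per degree of freedom), and its highest mice were WT mouse 3 and Ube3a m-/p+ mice 1 and 2.

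The Cfap genes, a mixed family named for association with cilia and flagella, had 14 positive and 9 negative log2 fold changes among 23 tested, with a median of 0.04. None was called by edgeR, and 4 were higher and 3 lower at an unadjusted p below 0.05. Of all 14445 genes tested, 1765 were higher and 1795 lower at that p. Of the 3 highest per length, Cfap36 and Cfap97 had negative and Cfap298 positive log2 fold changes. Cfap36 had 69.97, 83.5 and 87.9 CPM in WT mice and 72.8, 63.9 and 66.4 CPM in Ube3a m-/p+ mice. WT mouse 1 lay among the Ube3a m-/p+ mice, and the log2 fold change was -0.23 (SE 0.10). Cfap97 had 34.98, 49.7 and 41.1 CPM against 34.95, 30.8 and 32.3 CPM, so that the mice numbered 1 had the same level, and the log2 fold change was -0.35 (SE 0.13). Cfap298, needed to assemble dynein arms, had 22.1, 17.6 and 14.5 CPM against 17.9, 25.7 and 25.8 CPM, a log2 fold change of 0.37 (SE 0.17) with overlap. For Cfap298, the opposite-strand gene Gm49727 covers 44.2% of the exons, and 4930534H18Rik on that strand overlaps them too.

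Cfap52, a protein inside the microtubules, had 1.41, 0.231 and 1.65 CPM in WT mice and 2.82, 2.30 and 1.71 CPM in Ube3a m-/p+ mice. The highest WT mouse almost reached the lowest Ube3a m-/p+ mouse, and the log2 fold change of 1.08 (SE 0.47) was 0.58 to 1.47 with 1 mouse left out, on 95 counts. Cfap157, known from sperm, had 3.77, 3.57 and 3.02 CPM in WT mice and 2.59, 1.94 and 2.57 CPM in Ube3a m-/p+ mice, without overlap (log2 fold change -0.54, SE 0.29). Cfap300, which takes part in dynein arm assembly, had 8.60, 11.9 and 11.4 CPM against 8.12, 8.04 and 6.18 CPM. It was lower in all Ube3a m-/p+ mice, with mouse 1 of each genotype close together, and its log2 fold change was -0.49 (SE 0.19). The other Cfap genes tested had log2 fold changes between -0.40 (Cfap47) and 0.72 (Cfap45).

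**Figure D3:**
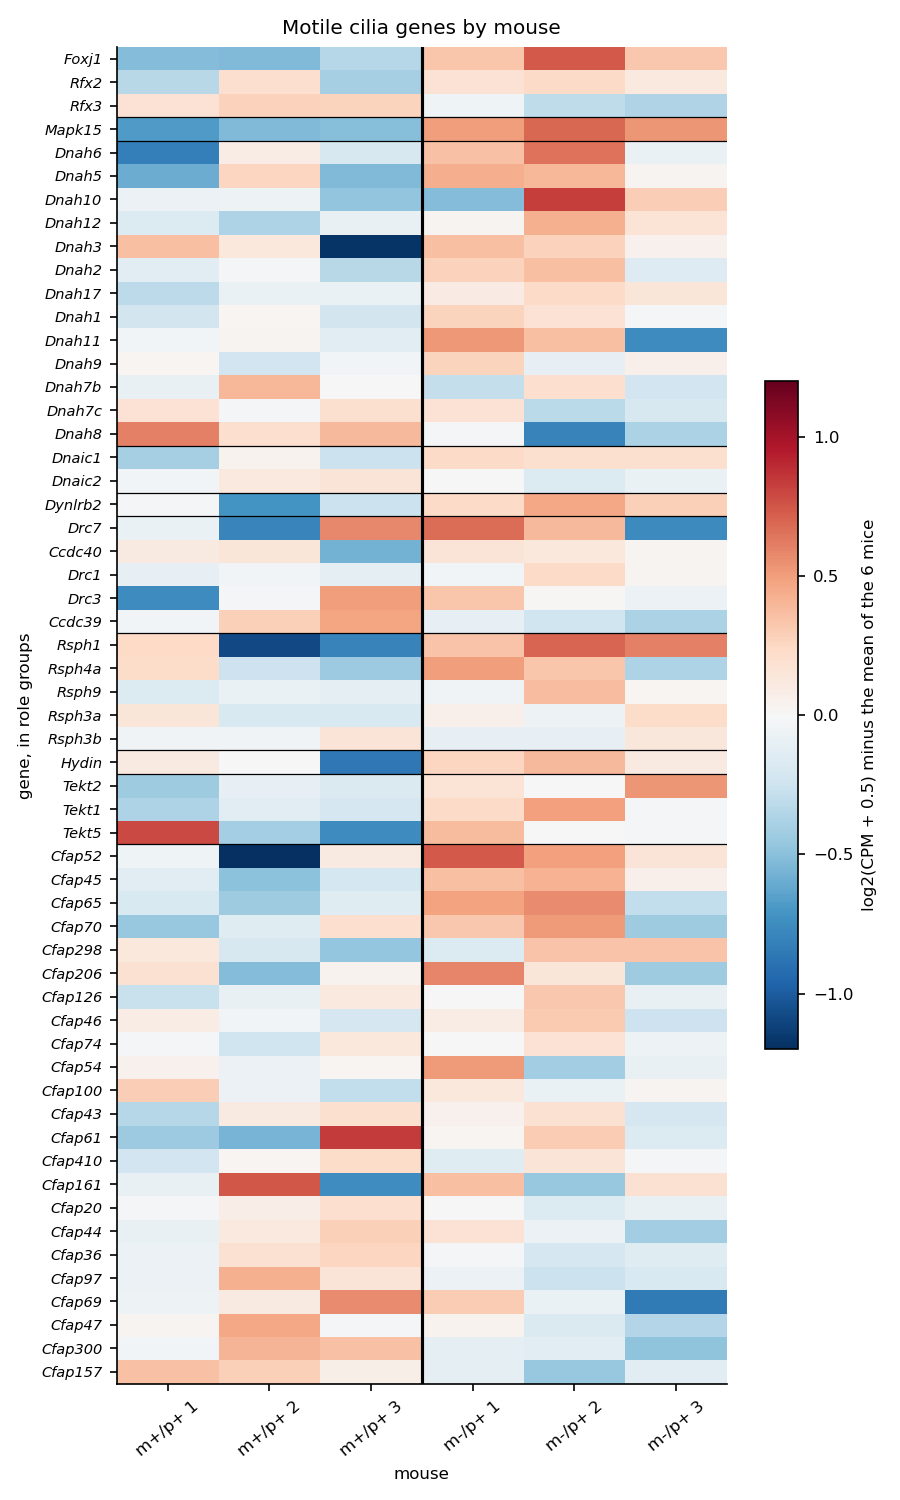
Each row is 1 of the 57 motile cilia genes tested and each column 1 mouse, in role groups separated by lines, with colour for log2(CPM + 0.5) minus the mean of the 6 mice. Foxj1 and Mapk15 are red in all 3 Ube3a m-/p+ mice, most dynein heavy chains are red in Ube3a m-/p+ mice 1 and 2 and paler in mouse 3, and Drc7 and Cfap69 are blue in Ube3a m-/p+ mouse 3.

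Seen by mouse, the median deviation of the 57 genes from the WT mean was 0.29 and 0.32 on the log2 scale in Ube3a m-/p+ mice 1 and 2 but 0.03 in mouse 3, against -0.05, 0.04 and 0.05 in WT mice 1, 2 and 3. Ube3a m-/p+ mouse 3 thus lay among the WT mice by this measure, which is a description of genes chosen on these libraries. Leaving out Ube3a m-/p+ mouse 3 gave a median over the motile cilia genes of 0.28, and leaving out Ube3a m-/p+ mouse 1 gave 0.16.

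Genes of the same pathways that are not in the list were taken from textbook knowledge, also with these results known. Of 39 further genes of the central pair, axoneme and ependymal cells, 30 were tested, 23 had a positive log2 fold change, and the median was 0.25. None was called by edgeR, with 6 higher and 0 lower at an unadjusted p below 0.05, where 1765 and 1795 of all 14445 genes were. Of the 30, 9 did not overlap between the genotypes, all higher in Ube3a m-/p+ mice, where 10.8% of all genes did so. Summed, they had 182.1, 177.2 and 196.2 CPM in WT mice and 225.2, 217.1 and 201.5 CPM in Ube3a m-/p+ mice, with WT mouse 3 and Ube3a m-/p+ mouse 3 close together. Tppp3, a tubulin polymerization protein and the one with most counts, had 22.0, 18.7 and 20.4 CPM in WT mice and 25.8, 31.5 and 27.5 CPM in Ube3a m-/p+ mice. Its genotypes did not overlap, with a log2 fold change of 0.49 (SE 0.12, adjusted p = 0.0513, edgeR). After correction for transcript GC and length, Tppp3 was at 0.242 (adjusted p = 0.328, edgeR) and not called. DESeq2 gave an adjusted p for 7 of these genes and called Tppp3, while over all genes it called 934 of 10689. Next in counts, Iqcg had a log2 fold change of -0.08 (SE 0.12) and Vwa3a of 0.15 (SE 0.15).

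A list for the assembly and docking of dynein arms held 19 genes. It also takes in some subunits of the arms, such as Dnal1, and of the regulatory complex. Of the 19, 16 were tested and 10 had a positive log2 fold change, with a median of 0.10. None was called by edgeR (4 higher and 0 lower at an unadjusted p below 0.05, where 1765 and 1795 of all 14445 genes were). The 3 with most counts overlapped between the genotypes, with log2 fold changes for Dnal1 (-0.18, SE 0.09), Dnaaf2 (0.14, SE 0.13) and Spag1 (-0.08, SE 0.13). A list of intraflagellar transport and the BBSome, which primary cilia of neurons use too, held 33 genes, some other genes of primary cilia among them. Of the 33, 14 were higher and 19 lower, with a median of -0.08. None was called by edgeR (4 higher and 3 lower at an unadjusted p below 0.05), and the kinesin-2 subunits Kifap3, Kif3a and Kif3b had log2 fold changes of -0.19, -0.11 and 0.004. DESeq2 gave an adjusted p for 5 genes of the first of these lists and called 0, and for 30 of the second and called 1, Sstr3, a receptor of neuronal primary cilia named after its values were seen.

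The list for the control of multiciliation and centriole amplification had the opposite median. It also takes in the other RFX genes Rfx1, Rfx4, Rfx5 and Rfx7, for which no such role is claimed here. Of 19 listed, 15 were tested and 11 had a negative log2 fold change, with a median of -0.13, and none was called by edgeR (0 higher and 5 lower at an unadjusted p below 0.05). Of all 14445 genes tested, 1765 were higher and 1795 lower at that p. DESeq2 called 0 of the 8 for which it gave an adjusted p. Ccp110, Tfdp1 and Rfx1, which have most counts, had log2 fold changes of -0.13, -0.01 and 0.25. In 4 of the 15 genes tested all Ube3a m-/p+ mice were below all WT mice, and 14.2% of all genes tested did so. The 4 were Gmnc, Trp73, Rfx4 and Rfx5, named after their values were seen. Mcidas, left out by the filter with 26 counts, was lower in the same way and is also named after its values were seen. Gmnc, whose product starts the multiciliated cell programme, had 5.07, 5.42 and 6.31 CPM in WT mice and 3.72, 3.18 and 2.76 CPM in Ube3a m-/p+ mice. Its log2 fold change was -0.78 (SE 0.24, adjusted p = 0.0728, edgeR), and -0.47 (adjusted p = 0.382, edgeR) after correction for GC and length. Its transcript has 37.9% GC, against 61.4% in Foxj1. Bulk RNA does not show whether reads of Gmnc, Trp73 and Foxj1 came from the same cells. Trp73 had 7.77, 7.84 and 8.64 CPM against 5.97, 6.28 and 4.85 CPM, a log2 fold change of -0.48 (SE 0.19, adjusted p = 0.143, edgeR). After the same correction it was at -0.64 (adjusted p = 0.11, edgeR).

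Markers of neighbouring tissues varied between the mice. The 15 choroid plexus genes, whose epithelium also bears cilia, summed to 1054, 336.9 and 3521 CPM in WT mice 1, 2 and 3. In Ube3a m-/p+ mice 1, 2 and 3 they summed to 3682, 2673 and 318.6 CPM. They were thus high in 1 WT and 2 Ube3a m-/p+ mice, over an 11.6-fold range, and none of the 15 was called (0 also at an unadjusted p below 0.05 by edgeR, and 0 by DESeq2, which gave an adjusted p for 9). All 15 had a positive log2 fold change, with a median of 0.49, and Ttr, Enpp2 and Kl had 0.49 (SE 1.71), 0.43 (SE 0.99) and 0.43 (SE 0.72). The highest mice in Drc7 were those highest in the choroid plexus genes. With the mean log2(CPM + 1) of these 15 genes as a covariate, an alternative chosen after seeing the data, 52 of the 57 motile cilia genes kept their sign, and the median log2 fold change was 0.16. In that fit 4 of the 57 were called, Ccdc39 beside Foxj1, Mapk15 and Rfx3, while over all genes the calls went from 290 to 935 of 14445. Foxj1 was at 0.98 and Mapk15 at 1.39.

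The 10 genes of meninges and fibroblasts summed to 63.0, 54.3 and 63.2 CPM in WT mice and to 80.3, 112.8 and 65.5 CPM in Ube3a m-/p+ mice. The Ube3a m-/p+ mice were higher, mouse 3 only just. In this list 9 of 10 had a positive log2 fold change, with a median of 0.49, and Igfbp6 (1.49, SE 0.22, adjusted p = 0.0241) and Col1a1 (0.73, SE 0.17, adjusted p = 0.0416, edgeR) rose. Both were called, where 1.02% of all genes were called higher. Col1a2 and Dcn had log2 fold changes of 0.55 (SE 0.18) and 0.44 (SE 0.39). Both calls were lost in some of the 15 alternatives, that of Igfbp6 in 5 and that of Col1a1 in 7. Their transcripts are rich in GC (60.7% for Igfbp6 and 58.9% for Col1a1). Corrected for GC and length, Igfbp6 was at 1.15 (adjusted p = 0.0118, edgeR) and still called. Col1a1 was then at 0.55 (adjusted p = 0.0736, edgeR) and not called. The signs of these markers were those of Foxj1 and most dynein genes, and their part in those differences was not tested.

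Astrocyte, neuron and hippocampal markers had medians of -0.18, -0.06 and -0.09, over 8 genes each, and none was called by edgeR. At an unadjusted p below 0.05 there were 4 lower astrocyte genes, 3 higher and 2 lower neuron genes, and 1 higher and 1 lower hippocampal gene. Of all 14445 genes tested, 1765 were higher and 1795 lower at that p. DESeq2 called 1, 2 and 2 genes of these lists, Slc1a2, Tubb3 and Slc17a7, and Wfs1 and C1ql2, of which Tubb3 and C1ql2 are named after their values were seen. Over all genes it called 934 of the 10689 with an adjusted p. Slc1a2, the main glutamate transporter of astrocytes, had a log2 fold change of -0.32 (SE 0.08, adjusted p = 0.0513, edgeR), while Aldoc and Slc1a3 had 0.21 and -0.13. Snap25, Slc17a7 and Syt1 had -0.23, 0.35 and -0.16, and Neurod6, Wfs1 and Fibcd1 had -0.10, -0.34 and 0.12.

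**Figure D4:**
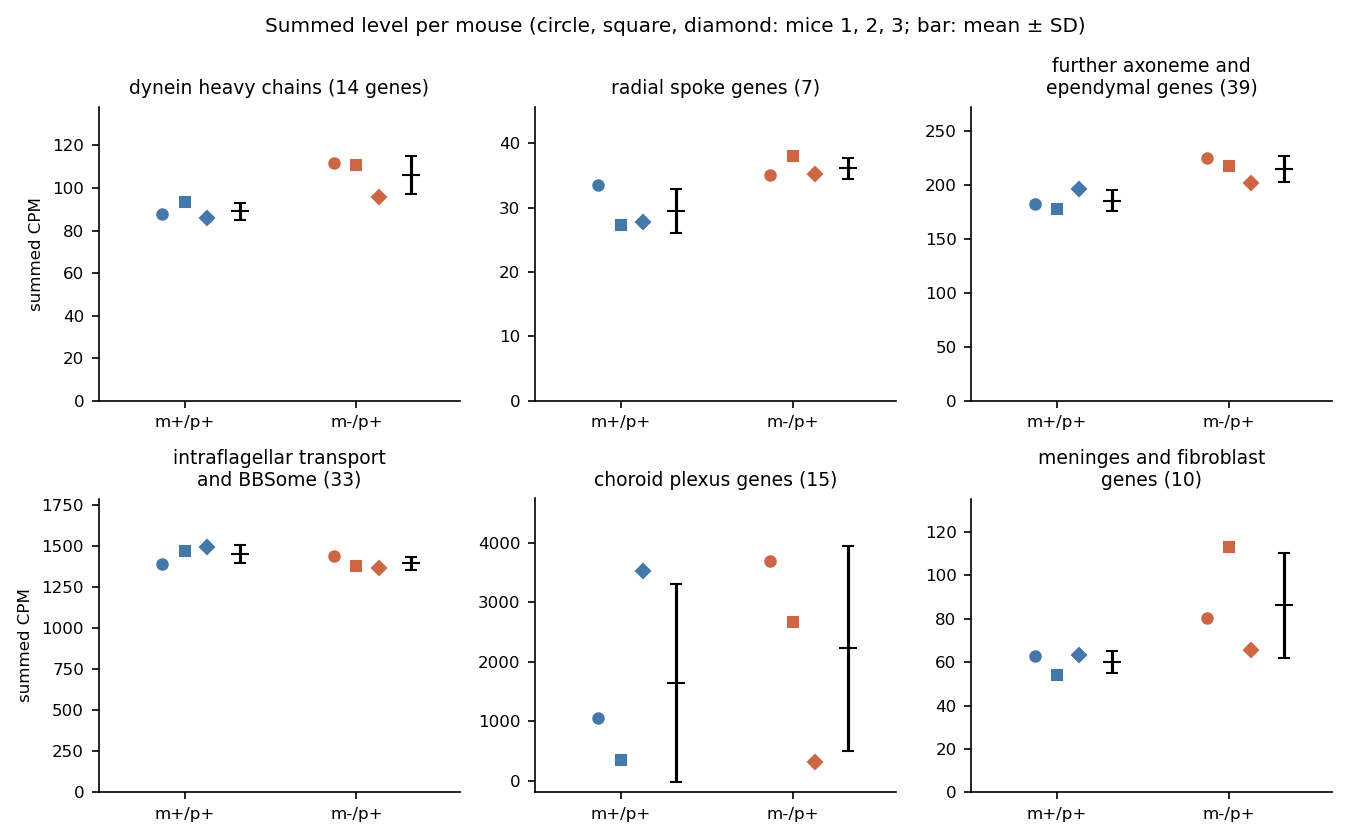
Summed CPM of 6 gene groups in each mouse, with circles, squares and diamonds for mice 1, 2 and 3 and bars for the mean ± SD of 3 mice. The dynein heavy chains, radial spoke genes and further ependymal genes are higher in each Ube3a m-/p+ mouse, the choroid plexus genes range from 318.6 to 3682 CPM across both genotypes, and the transport genes of primary cilia overlap.

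The genotype differences of the motile cilia genes went along with the GC content of their transcripts, as did those of all genes. Taken over genes, which share their 6 libraries and are no replicates, the rank correlation (Spearman) of log2 fold change with GC content was 0.40 for the 57 genes and 0.62 for 14327 genes. Foxj1 and Mapk15 have GC-rich transcripts (61.4% and 61.7%), while those of Rfx3 and Ccdc39 are poor in GC (40.2% and 39.9%). Of the 11 motile cilia genes under 45% GC, 2 had a positive log2 fold change, where 14.6% of all such genes did. Between 45% and 50% it was 12 of 16, where 36.3% of all genes did, between 50% and 55% it was 23 of 25, against 66.2%, and from 55% it was 4 of 5, against 86.5%.

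With each library corrected for GC content and transcript length, 38 of the 57 genes had a positive log2 fold change, with a median of 0.12, and 54 kept their sign. Foxj1 was at 0.73 and was the only gene of the list still called. Mapk15 was at 1.08, Rsph1 at 0.98 and Dnah8 at -1.05, and Rfx3 and Ccdc39 shrank to -0.17 and -0.22. Gmnc and the median of the further ependymal genes kept their signs, at -0.47 and 0.26, while Tppp3 of that list shrank to 0.242. By library, the log2 level of each gene was also taken as its deviation from the mean of the 6 libraries. The rank correlation of these deviations with GC content was near 0 in the mice numbered 1 (0.0454 in WT and 0.0579 in Ube3a m-/p+). It was negative in WT mice 2 and 3 (-0.505 and -0.571) and positive in Ube3a m-/p+ mice 2 and 3 (0.525 and 0.529). These values are relative to the other libraries. Genotype and a GC effect of the libraries therefore cannot be told apart beyond this correction.

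**Figure D5:**
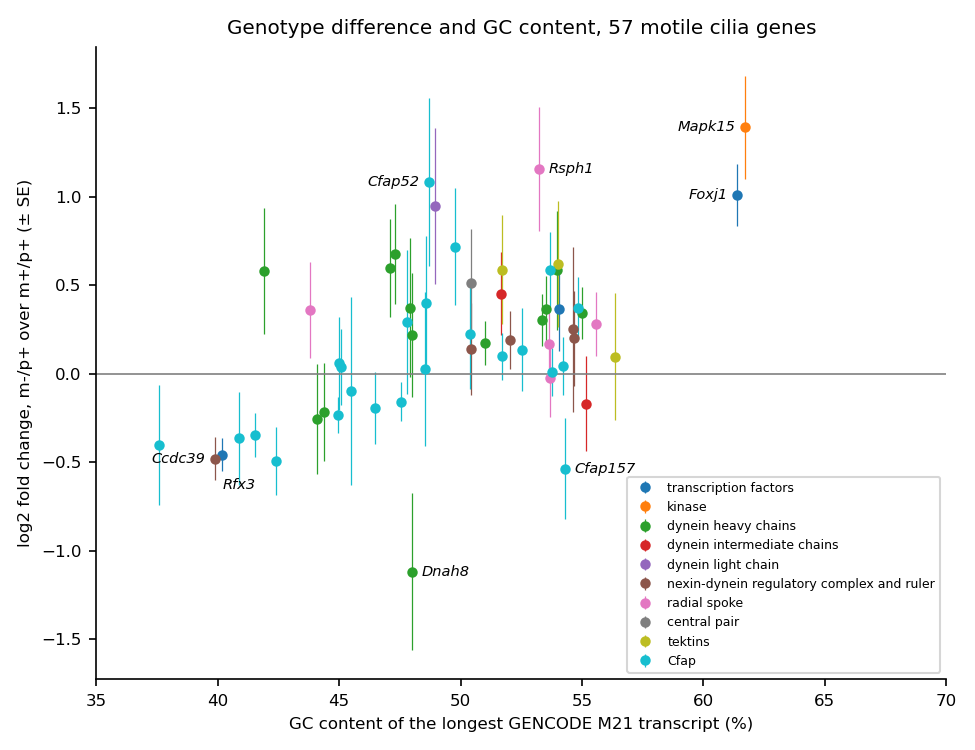
Log2 fold change (Ube3a m-/p+ over WT, ± SE) against the GC content in percent of the longest annotated transcript for the 57 motile cilia genes, coloured by role. Foxj1 and Mapk15 stand at the GC-rich end, Rfx3 and Ccdc39 at the GC-poor end with negative values, and Dnah8 and Cfap157 lie below the other genes of similar GC content.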

How the data were processed

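The authors deposited counts, whole numbers of reads per gene symbol for each mouse, not normalized and not pooled. The submitters' processing notes name STAR 2.7.4a, HTSeq and the build mm10, while the annotation and strand setting are not given in the sources used here. Reads on no gene were 54.1% to 55.0% and reads with more than 1 alignment 3.71% to 5.77% of those listed, and both stayed out of library sizes.

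Counts were analysed in R 4.3.3. Genes passing filterByExpr were scaled by TMM and tested by the quasi-likelihood test of edgeR 4.0.16, two-sided, with genotype as the only factor and Benjamini-Hochberg adjustment over 14445 genes. SE was derived from the test, as the absolute log2 fold change divided by the square root of its F statistic. CPM per mouse is relative to the gene counts of the library, without TMM. Depth, 7293272 to 11314409 counts, limits genes under 100 counts. No library was a copy of another (chi-square per degree of freedom between libraries at least 3.78). Positions, lengths and GC content come from GENCODE M21 (GRCm38), matched by symbol for 68 and by synonym for 2 of the 70 genes. The fits were also run on simulated counts, drawn without a GC, length or replicate effect. Those runs could not check how well such effects are removed.

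The members and the lists of other genes were chosen with earlier results of these data known. Values are given for the 8 genes added by name, genes called, the 3 highest per length in each family, the 5 largest rises and falls, and in other lists the genes called and the 3 with most counts. Others named carry that remark or only fill a range or count. Alternatives were DESeq2 1.42.0, other scaling and filters, a replicate block, a correction by splines (5 degrees of freedom each on GC content and length), each mouse left out, and the choroid plexus covariate.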

Additional observations from a re-analysis of the deposited data

How the results depend on the processing

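The median log2 fold change of the motile cilia genes, 0.20, lay between 0.12 and 0.28 under all 15 alternatives that gave it. These medians are not all over the same genes. That of DESeq2 is over the 19 with an adjusted p, and that without a filter is over 70. The number called, 3 of 57, was 3 with DESeq2 (Ccdc39 in place of Mapk15), 3 with library sizes alone or no fold threshold, and 4 with RLE factors, at least 10 counts in every library or the choroid plexus covariate. It was 6 without a filter, 1 (Foxj1) with the GC and length correction, and 16 at an unadjusted p. With 1 mouse left out it ran from 0 to 9. Leaving out WT mouse 2 gave 0 (12 by unadjusted p), as did WT mouse 3 (11), Ube3a m-/p+ mouse 2 (6) and mouse 3 (16), against 6 without Ube3a m-/p+ mouse 1 and 9 without WT mouse 1. DESeq2 gave no adjusted p for most of these genes, which are low in counts, and 19 had one. Foxj1 was called in 9, Rfx3 in 8, Mapk15 in 7, Ccdc39 in 7, Rsph1 in 3 and Cfap298 in 2 of 15 alternatives.

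Over all genes, 290 calls became 934 with DESeq2, 1176 without a filter, 93 with the GC and length correction, 935 with the choroid plexus covariate, 2832 at an unadjusted p, and 0 to 2582 with 1 mouse left out. In the other lists, 2 calls became 8, 12, 1, 9, 32 and 0 to 23 in that order, and 4 with at least 10 counts in every library. The causes were not tested.

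The replicate numbers were also fitted as a block. Deviations of same-numbered mice correlated at -0.28, -0.18 and -0.31, and no label ties the numbers to a litter or day, so they share only a number. With the block, edgeR called 0 motile cilia genes (12 at an unadjusted p below 0.05), 0 of all genes (2422) and 0 of the other lists (27). With the block and the GC and length correction it called 0 (11), 17 and 1. The median of the motile cilia genes stayed positive in both fits, at 0.21 and 0.14.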

Other observations

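Of the 57 motile cilia genes tested, 22 had a chi-square per degree of freedom within the genotypes above 3, with Drc7, Cfap69, Ccdc39, Tekt5, Cfap65 and Drc3 highest, so mice of 1 genotype differed by more than counting noise. Cfap69 and Cfap65 are given in full after their values were seen. Cfap69, a central pair protein, had 10.4, 11.8 and 16.3 CPM in WT mice and 13.5, 10.25 and 5.80 CPM in Ube3a m-/p+ mice. Cfap65 had 10.01, 8.42 and 10.3 CPM against 16.2, 17.2 and 9.22 CPM. In both genes Ube3a m-/p+ mouse 3, which was low in choroid plexus genes, was lowest or next to lowest, and the part of the choroid plexus in this was not tested.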
